A study of Mus musculus with 4 samples.

Results

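In the hippocampus of mice on a western diet, 254 protein-coding genes were selected because rows for non-coding transcripts carried most of their deposited signal. RefSeq gives a protein-coding transcript an accession beginning NM_ and a transcript without an accepted reading frame, or with one judged not to be translated, an accession beginning NR_. Each gene had at least 1 row of both kinds, an NR_ sum averaging at least 300 units over the 4 libraries, and an NR_ sum of at least 80% of its 4-library total. They were 254 of the 904 protein-coding genes with both kinds of row, among 16146 genes in all. The NR_ level and the NR_ share therefore chose these genes, and both are given as a description. The genotype comparison was not used in choosing them.

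The libraries came from Tas1r3 knockout mice (KO-WD, n = 2) and wild-type mice (WT-WD, n = 2), both fed the western diet for 18 weeks, and no other diet or genotype was analysed here. Tas1r3 encodes a subunit of the sweet and umami taste receptors. The labels give total RNA of hippocampus and no age, sex or number of animals per library. They do not say that the libraries are separate animals, so every p-value rests on the spread of these libraries alone, and that spread may be technical. Tas1r3 itself had 0.887 and 1.85 units in the KO-WD libraries, against 16.1 and 15.9 units in the WT-WD libraries. Its log2 difference of -2.88 ± 0.35 (SE) did not pass the genotype test described below, with a limma adjusted p of 0.197. As a gene total on the scale of estimated reads, also described below, it passed, with a limma adjusted p of 0.00254. A gene that misses the threshold here may therefore still differ.

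Many coding genes also give rise to transcripts that keep an intron, skip an exon or carry a premature stop codon. Transcripts that keep an intron are often held in the nucleus, and those with a premature stop codon are often destroyed in the cytoplasm by nonsense-mediated decay. In the brain, kept introns are known for storing RNAs that are spliced to completion when a neuron is active. RefSeq files such transcripts under NR_ accessions of the parent gene, and they usually share most of their exons with the coding transcripts.

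The deposited rows of each library fell into 3 blocks on separate scales, and nearly all NR_ rows of the selected genes lay in 1 of them. The first block held 14525 rows, the NM_ rows with 6-digit accessions together with the NR_ rows numbered up to 151661. The second block held the 14546 NM_ rows with 9-digit accessions. The third block held the 1037 NR_ rows numbered above 151661. Each block summed to nearly the same total in every library, between 994029 and 1000605 units. Low values in each block piled up at multiples of a step, least clearly in the second block. That step is taken here as what 1 read is worth. In the KO-WD libraries that step was 0.222 and 0.231 units in the first block, 0.438 and 0.428 in the second, and 16.6 and 14.1 in the third. In the WT-WD libraries it was 0.258 and 0.188 units in the first block, 0.50 and 0.359 in the second, and 17.7 and 11.6 in the third. A read in the third block thus counted for between 61.2 and 74.8 times as many units as a read in the first block of the same library. On these steps the smallest row of the first block and of the third block held 10 reads summed over the 4 libraries. In the second block 7 rows lay below that sum.

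Counted in reads, the third block was small. It held 60034 and 70359 estimated reads in the KO-WD libraries, against 56179 and 85591 in the WT-WD libraries, between 0.876% and 1.05% of the reads of each library. All blocks together held 6851145 and 6721089 estimated reads in the KO-WD libraries, against 5922610 and 8191028 in the WT-WD libraries. Of the 455 NR_ rows of the selected genes, 439 lay in the third block and 16 in the first. The row with the highest signal in units lay in the third block for 252 of the 254 genes. The exceptions were Pitpnm1 and Atp2a2. The threshold of 300 units corresponded to between 16.9 and 25.8 reads of the third block. The boundary was set after the last NR_ row averaging under 30 units, so the third block could hold no such row, and its lowest averaged 33.9 units. NR_ rows of the third block had a median signal of 268.9 units, whereas NR_ rows of the first block had a median of 3.97 units. In estimated reads the 2 sets of NR_ rows had medians of 18.2 and 17.9.

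**Figure D1:**
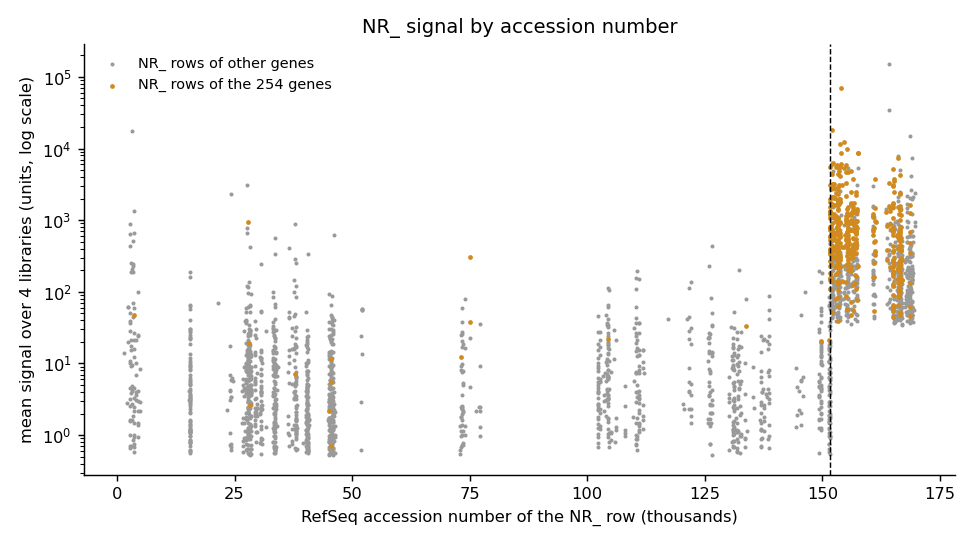
Mean signal of every NR_ row over the 4 libraries (units, log axis) against its RefSeq accession number divided by 1000, with rows of the 254 selected genes in orange and other NR_ rows in grey. The dashed line stands at number 151661, the last NR_ row averaging under 30 units, so by that rule no row to its right averages less. The lowest row right of the line averaged 33.9 units, and 439 of the 455 orange rows lie there.

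The NR_ share of the selected genes was therefore high in units and much lower in reads. Over the 254 genes the NR_ share of the deposited units had a median of 95.03% and ranged between 81.1% and 99.9%. Dividing every row by what 1 read was worth in its own block and library gave a median NR_ share of 28.8% of estimated reads, with a range between 6.83% and 95.3%. In reads, 13 of the 254 genes had an NR_ share of at least 80%, 59 had at least 50%, and 73 had less than 20%. The name given to the group, coding genes dominated by non-coding transcripts, thus held for the deposited units and, in estimated reads, for 59 of the 254 genes at a limit of 50%. They are called here the selected genes. Neither scale is per length, because the lengths of most NR_ rows were not available. The other 650 genes with both kinds of row had a median NR_ share of 20.4% of reads.

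**Figure D2:**
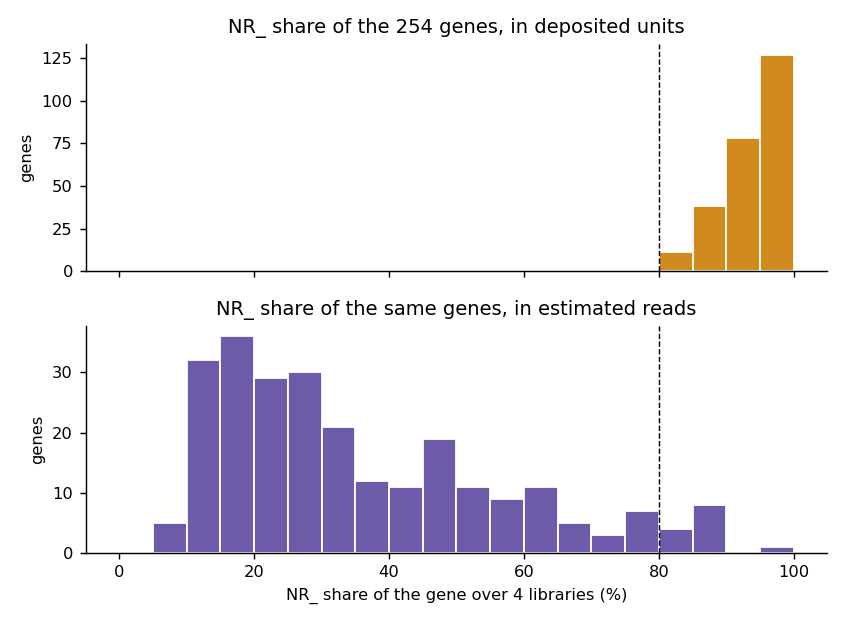
NR_ share of each of the 254 selected genes over the 4 libraries (%), counted in bins of 5 percentage points, in deposited units (top) and in estimated reads (bottom). The dashed line marks 80%; all 254 genes lie right of it in units and 13 do in reads.

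The genes nearest the thresholds show what the rule kept and left. Just inside 300 units were Pitpnm1 (304.0), Oca2 (303.6) and Snrpa1 (302.8), and just outside were Gsap (299.8), Piga (296.3) and 0610010F05Rik (296.1). Just inside an 80% share were Luc7l3 (81.1%), Yars (82.5%) and Cnot7 (82.5%), and just outside were Pdap1 (79.7%), Ssbp4 (79.5%) and Fam219a (79.5%).

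What the NR_ transcripts are could be read for a small number of rows. GENCODE release M21 (assembly GRCm38) paired 31 of the 455 NR_ rows, from 30 genes, with a transcript of the same gene. Of the 18 paired rows of the third block, 10 were classed as retained introns and 8 as processed transcripts, a class for transcripts without an open reading frame. For 5 of the 31 rows the paired transcript was itself classed as protein-coding. Over the 31 rows, a median of 7.9% of the transcript's bases lay outside every other protein-coding transcript of the gene. In 19 rows less than 10% lay outside. Only reads that touch those bases, or a junction particular to 1 form, can tell the NR_ transcript from the coding ones.

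The introns kept in 6 of these NR_ transcripts are shown because each is the longest stretch of the NR_ transcript that no coding transcript of the gene holds. In Camkk1 and Carmil3 shorter stretches outside the coding transcripts come on top of the intron. Each is printed in full, 5′ to 3′ on the strand of the gene, from GENCODE M21 transcripts (GRCm38). Capitals mark the first 2 and the last 2 bases, which are the GT and AG at which the coding transcripts splice the intron out. The genes are Camkk1, a kinase that activates calmodulin-dependent kinases (NR_156179, chr11:73037269-73037537, plus strand), Carmil3, a regulator of actin capping protein (NR_155104, chr14:55501594-55501829, plus strand), Maged1, an adaptor of the MAGE family in neurotrophin signalling (NR_157578, chrX:94537756-94537973, minus strand), Pex6, a peroxisome assembly ATPase (NR_157369, chr17:46723736-46723918, plus strand), Rabggta, a subunit of the enzyme that attaches lipid anchors to Rab proteins (NR_153435, chr14:55719143-55719239, minus strand), and Stub1, the ubiquitin ligase CHIP (NR_157362, chr17:25831366-25831543, minus strand).
Camkk1: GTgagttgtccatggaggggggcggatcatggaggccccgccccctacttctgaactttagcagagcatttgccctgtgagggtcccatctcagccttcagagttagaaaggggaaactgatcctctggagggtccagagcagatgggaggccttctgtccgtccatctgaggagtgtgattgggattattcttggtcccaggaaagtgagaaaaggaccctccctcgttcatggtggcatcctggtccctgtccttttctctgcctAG
Carmil3: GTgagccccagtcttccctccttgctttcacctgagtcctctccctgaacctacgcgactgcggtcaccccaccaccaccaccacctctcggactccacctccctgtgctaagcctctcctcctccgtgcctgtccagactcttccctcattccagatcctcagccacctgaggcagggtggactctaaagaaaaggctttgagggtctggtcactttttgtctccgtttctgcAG
Maged1: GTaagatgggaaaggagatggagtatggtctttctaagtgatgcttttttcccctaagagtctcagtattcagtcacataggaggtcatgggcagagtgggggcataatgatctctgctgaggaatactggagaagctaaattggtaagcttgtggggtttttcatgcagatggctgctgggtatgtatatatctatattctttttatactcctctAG
Pex6: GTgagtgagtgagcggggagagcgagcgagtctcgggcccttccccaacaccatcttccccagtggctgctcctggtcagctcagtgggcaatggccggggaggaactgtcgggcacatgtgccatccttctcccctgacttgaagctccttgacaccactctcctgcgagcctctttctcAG
Rabggta: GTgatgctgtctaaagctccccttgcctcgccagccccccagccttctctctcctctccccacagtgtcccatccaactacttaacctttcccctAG
Stub1: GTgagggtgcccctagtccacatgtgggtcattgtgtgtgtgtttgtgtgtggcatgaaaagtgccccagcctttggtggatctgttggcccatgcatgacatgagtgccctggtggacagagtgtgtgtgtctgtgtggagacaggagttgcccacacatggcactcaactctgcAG
The introns are between 97 and 269 bases long, in transcripts of between 1408 and 4762 bases. The NR_ transcripts share between 87.4% and 96.1% of their bases with coding transcripts.

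The selected genes with the highest NR_ signal included several known for their part in neurons and myelin. Mobp, a structural protein of central myelin made by oligodendrocytes, had the highest NR_ signal, 80967 and 72392 units in the KO-WD libraries, against 86108 and 98903 units in the WT-WD libraries. These were 4882 and 5116 estimated reads in KO-WD, against 4862 and 8516 in WT-WD, and Mobp kept an NR_ share of 83.2% in reads. Gria2, the AMPA receptor subunit that limits calcium entry, had 25417 and 29220 NR_ units in KO-WD, against 25896 and 25138 in WT-WD. Its NR_ share was 96.1% in units and 39.9% in reads, since its NM_ rows held between 2183 and 3153 estimated reads. In units the genotypes overlapped for Gria2 and not for Mobp, whose KO-WD libraries were both lower.

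Among the other 10 of the 12 genes with the highest NR_ signal, the NR_ share in reads differed widely. Chpf2, a chondroitin sulfate polymerizing factor, had 88.3%, Carmil3 85.3% and Nt5c2, a cytosolic purine nucleotidase, 80.7%. Nos1ap, an adaptor of neuronal nitric oxide synthase, had 50.6%, and Cyth1, an exchange factor for Arf proteins, had 50.1%. Ptma, the chromatin-associated protein prothymosin alpha, had 46.6%, Hnrnpk, an RNA-binding protein of nucleus and cytoplasm, 45.0% and Lgi1, a secreted synaptic protein, 45.0%. Pde2a, a phosphodiesterase that cyclic GMP activates, had 22.7% and Maged1 had 12.2%. In units all 10 lay between 90.05% and 99.8%.

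Several of these genes had steady NR_ signal in all 4 libraries. Carmil3 had 7016 and 7269 NR_ units in KO-WD, against 7100 and 7161 in WT-WD. Pde2a had 11549 and 11631 units in KO-WD, against 11980 and 11136 in WT-WD. Nos1ap had 11413 and 13910 units in KO-WD, against 12148 and 12366 in WT-WD. The genotypes overlapped in all 3. Hnrnpk had 12461 and 11234 units in KO-WD, against 13170 and 9961 in WT-WD. Maged1 had 7030 and 10649 units in KO-WD, against 8290 and 8592 in WT-WD. Nt5c2 had 7016 and 6533 units in KO-WD, against 5015 and 7062 in WT-WD. These 3 also overlapped, with wider spreads. Ptma had 17738 and 11078 units in KO-WD, against 12176 and 12800 in WT-WD, so that its highest and its lowest library were both knockouts. Chpf2 had 9216 and 11420 NR_ units in KO-WD, against 10178 and 9041 in WT-WD. Its NM_ rows were far less steady, with 240.9 and 2.06 estimated reads in KO-WD, against 95.3 and 20.9 in WT-WD. Lgi1 and Cyth1 had higher NR_ sums in both knockout libraries. Lgi1 had 10675 and 8676 units in KO-WD, against 8329 and 7463 in WT-WD, and Cyth1 had 7665 and 7939 units in KO-WD, against 6089 and 7498 in WT-WD. None of the 12 genes passed the genotype test described below for its NR_ sum, and Lgi1 had the smallest unadjusted p among them, at 0.0818.

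**Figure D3:**
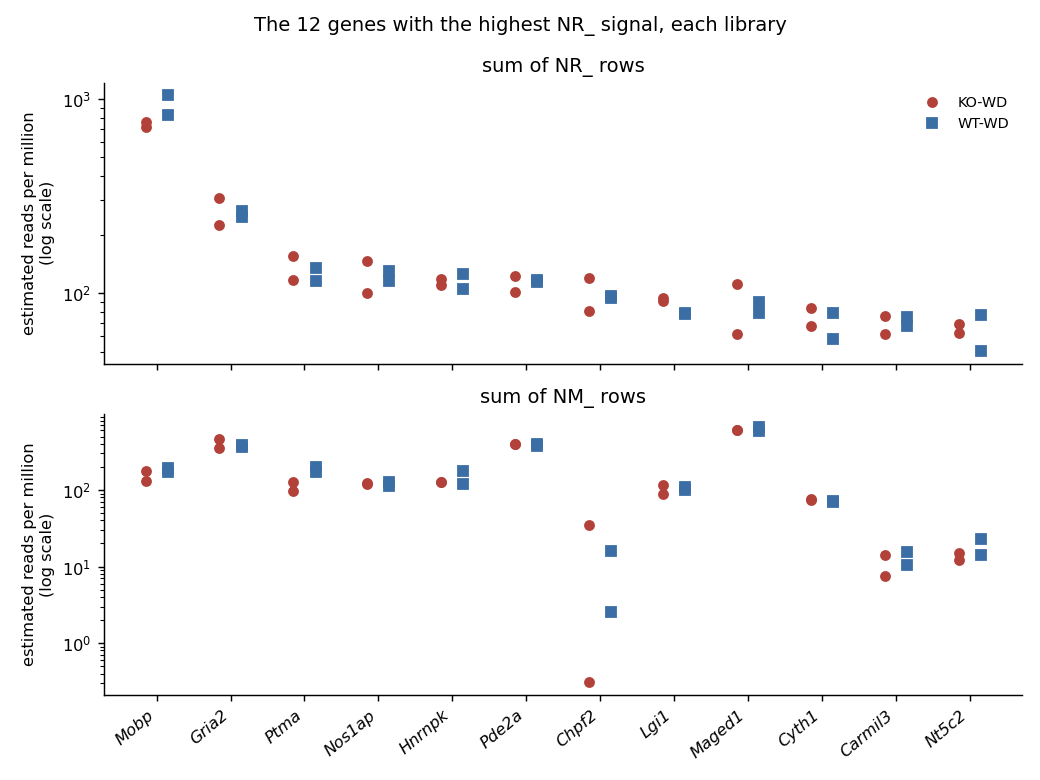
Estimated RPM (reads per 1000000 of the library, log axis) for the sum of NR_ rows (top) and of NM_ rows (bottom) of the 12 selected genes with the highest NR_ signal, with 1 point per library, KO-WD circles left of WT-WD squares. NR_ points of a gene lie close together, while Chpf2 NM_ rows held between 2.06 and 240.9 estimated reads per library.

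The 13 genes with an NR_ share of at least 80% in reads were Ankrd16, Klhl11, Atp2a2, Zfp939, Chpf2, Mrpl48, Gm9222, Carmil3, Pitpnm1, Hrh2, Mobp, Rce1 and Nt5c2. Ankrd16 had 95.3%, with 110.3 and 186.6 NR_ reads in KO-WD, against 100.1 and 111.6 in WT-WD. Its NM_ row held 1.21 and 7.33 reads in KO-WD, against 0.005 and 16.4 in WT-WD. Klhl11, an adaptor of a cullin ubiquitin ligase, had 410.9 and 424.0 NR_ reads in KO-WD, against 311.8 and 463.6 in WT-WD. Hrh2, the histamine H2 receptor, had 55.4 and 57.2 NR_ reads in KO-WD, against 45.5 and 36.1 in WT-WD. Rce1, a protease that trims prenylated proteins, had 92.6 and 89.6 NR_ reads in KO-WD, against 28.9 and 105.0 in WT-WD. Before any scaling for depth, the NR_ reads of the genotypes overlapped in Ankrd16, Klhl11 and Rce1 and not in Hrh2. In deposited units, where a block has nearly the same total in every library, Ankrd16, Klhl11, Rce1 and Hrh2 were all higher in both KO-WD libraries. So was Gm9222, whereas Mobp and Atp2a2 were lower in both, and the rest of the 13 overlapped. Of all NR_ sums tested, 34.8% did not overlap. The limma adjusted p of the genotype test described below was 0.912 for Ankrd16, Klhl11, Rce1 and Hrh2, and none of them passed.

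Atp2a2 and Pitpnm1 differ from the rest, because their only NR_ rows lie in the first block. Those rows are not set on another scale than the 6-digit NM_ rows. Atp2a2, the calcium pump SERCA2 of the endoplasmic reticulum, had 4132 and 3956 NR_ reads in KO-WD, against 3709 and 4954 in WT-WD. Its NM_ rows held 351.3 and 619.1 reads in KO-WD, against 326.1 and 752.8 in WT-WD. GENCODE M21 classes the matched transcript as a target of nonsense-mediated decay. Pitpnm1, a phosphatidylinositol transfer protein, had 1308 and 1477 NR_ reads in KO-WD, against 1130 and 1560 in WT-WD. GENCODE M21 classes the transcript paired with its NR_ row as protein-coding. The same holds for the first-block NR_ row of Mrpl48, which held more reads than each of its third-block rows. That row had 269.2 and 209.4 reads in KO-WD, against 134.3 and 266.0 in WT-WD. Outside the selected genes, 8 more genes with both kinds of row had an NR_ share of at least 80% in reads.

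By known role, 186 of the 254 genes were placed in 11 groups, chosen by hand with earlier results of these data known, and 68 were not placed. The largest groups were chromatin and transcription with 31 genes (among them Hdac7, Kat2a, Kat2b and Sirt6), splicing and RNA processing with 24 (Hnrnpk, Hnrnpdl, Srsf11, Luc7l3, Prpf4b, Ythdc1), synapse, myelin and neuronal signalling with 23 (Gria2, Stx1a, Lrrtm1, Cdk5) and mitochondria, peroxisomes and metabolism with 23 (Ndufa5, Spg7, Polg, Gclc). Ubiquitin, chaperones and autophagy held 20 genes, ribosome making and translation 18, membrane traffic 14, and kinases, phosphatases and lipid signalling 14. Protein glycosylation held 8 genes, DNA repair and telomeres 7 and nuclear transport 4. The median NR_ share in reads of a group lay between 21.3% for protein glycosylation and 41.0% for DNA repair and telomeres, and was 25.6% for splicing and RNA processing and 39.9% for the synaptic, myelin and neuronal genes. No test was made of these groups. In the genotype comparison below, NR_ sums with an unadjusted p under 0.05 numbered 8 of 31 for chromatin and transcription, 6 of 23 for mitochondria, peroxisomes and metabolism, 5 of 14 for membrane traffic, 4 of 20 for ubiquitin, chaperones and autophagy, 3 of 23 for the neuronal genes, 2 of 24 for splicing and RNA processing, 2 of 18 for ribosome making and translation and 1 of 4 for nuclear transport. They numbered 0 of 14 for kinases, phosphatases and lipid signalling, 0 of 8 for protein glycosylation and 0 of 7 for DNA repair and telomeres, beside 10.3% of all NR_ sums tested.

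Replicate agreement was poorer for NR_ than for NM_ sums of the same genes. The NR_ sums also held fewer reads, with a median of 78.8 estimated reads, against 192.8 for the NM_ sums. The median difference between the 2 libraries of a genotype, as the mean absolute log2 difference over the genotypes, was 0.57 for the NR_ sums and 0.31 for the NM_ sums. In 101 of the 254 genes the NR_ sums of the 2 libraries of at least 1 genotype lay more than 2-fold apart, against 28 genes for the NM_ sums. In 26 genes the NR_ sums lay within 1.2-fold in both genotypes. Where a gene had 2 or more NR_ rows, which was the case for 103 genes, the same row led in all 4 libraries in 51.

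The steadiest NR_ sums were those of Atp2a2, Carmil3 and Ppp1cc, a catalytic subunit of protein phosphatase 1. Ppp1cc had 3533 and 3458 units in KO-WD, against 4019 and 3912 in WT-WD. The least steady were Cryz, a quinone oxidoreductase, Pcbp3, an RNA-binding protein, and Kansl2, a subunit of a histone acetyltransferase complex. Cryz had 820.1 and 460.2 units in KO-WD, against 0.388 and 376.4 in WT-WD. In reads, WT-WD replicate 1 thus held 0.022 NR_ reads of Cryz, under the floor of 3 reads, and 76.1 NM_ reads. Pcbp3 had 994.9 and 22.7 units in KO-WD, against 2108 and 1054 in WT-WD. Kansl2 had 543.9 and 1635 units in KO-WD, against 27.0 and 747.7 in WT-WD. Polg, Nubp2 and Terf1 also had 2 libraries of 1 genotype far apart, with Polg, the mitochondrial DNA polymerase, at 966.0 and 1209 units in KO-WD, against 1447 and 83.8 in WT-WD. Nubp2, an iron-sulfur cluster assembly factor, had 177.9 and 428.4 units in KO-WD, against 67.6 and 1120 in WT-WD. Terf1, a telomere-binding protein, had 402.6 and 26.9 units in KO-WD, against 669.9 and 525.6 in WT-WD. Of these 6 genes the genotypes overlapped in Kansl2, Polg and Nubp2.

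The NR_ and NM_ rows of a gene tended to move against each other between replicates, and their sum was steadier than either. Counted in estimated RPM (reads per 1000000 reads of the library), with 0.5 added before taking logs, the median replicate difference over the selected genes was 0.57 for the NR_ sums, 0.30 for the NM_ sums and 0.16 for both together. The sum of both classes differed less between replicates than each class did in 164 of the 254 genes. Between the 2 KO-WD libraries the NR_ and NM_ differences had opposite signs in 168 genes (66.1%), and between the 2 WT-WD libraries in 176 genes (69.3%). The other 650 genes with both kinds of row gave 63.2% in KO-WD and 64.0% in WT-WD, with no test made of the difference.

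Between 30 and 300 reads, genes with only 1 kind of row had steadier sums than the selected genes. At 30 to 100 estimated reads per library, the NR_ sums of 136 selected genes had a median replicate difference of 0.67 on the log2 scale. Genes with NR_ rows only had 0.31 at that depth (198 genes), and genes with NM_ rows only had 0.29 (2709 genes). The NM_ sums of 55 selected genes had 0.54. At 100 to 300 reads the NR_ sums of 60 selected genes had 0.38 and the NM_ sums of 96 selected genes had 0.33. Genes with NR_ rows only had 0.26 at that depth, and genes with NM_ rows only had 0.19. At 300 reads or more the NR_ sums of 34 selected genes had 0.29 and their NM_ sums 0.16 (86 genes), beside 0.27 for genes with NR_ rows only and 0.12 for genes with NM_ rows only. At 10 to 30 reads the NM_ sums of 14 selected genes, at 0.44, lay near the genes with NR_ rows only (0.42) and with NM_ rows only (0.43), while the NR_ sums of 24 selected genes had 0.95. The NR_ sums of other genes with both kinds of row had 0.66 at 30 to 100 reads (195 genes) and 0.48 at 100 to 300 reads (94 genes).

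**Figure D4:**
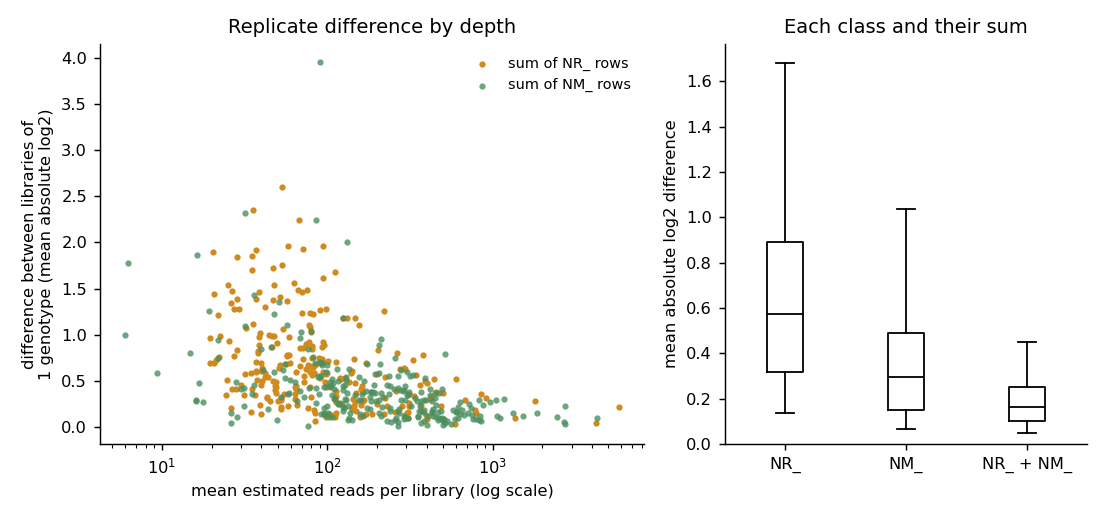
Left, the mean absolute log2 difference between libraries of 1 genotype against mean estimated reads per library (log axis), for NR_ sums (orange) and NM_ sums (green) of the 254 selected genes. Right, boxes show the quartiles and median, and whiskers the 5th to 95th percentile, for NR_ sums, NM_ sums and both added; the medians are 0.57, 0.30 and 0.16.

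Setting KO-WD against WT-WD asked whether loss of Tas1r3 changed the NR_ or the NM_ rows of these genes. It used limma on log2(units + 1) over all 16583 NR_ and NM_ sums that reached 1 unit in 2 or more libraries, with Benjamini-Hochberg adjustment and a two-sided threshold of 0.05. Of the 254 NR_ sums 1 passed, that of Nfxl1, and of the 254 NM_ sums none passed, while 0.0241% of all sums tested, 0.201% of the NR_ sums and 0.0% of the NM_ sums passed. The 4 sums that passed in all were NR_ sums, those of Nfxl1, Gm16008, Mfap2 and Ndc1. At an unadjusted p under 0.05 there were 39 NR_ sums (15.4%) and 26 NM_ sums (10.2%) of selected genes, beside 10.3% of all NR_ sums and 4.58% of all NM_ sums tested. Neither background is matched to the selected genes. All NR_ sums mix the first and the third block, and genes with NM_ rows only had steadier sums at 30 to 300 reads. Why the shares differ was not tested. When the NR_ rows of the third block were fitted alone, 20 of 252 selected genes (7.94%) had an unadjusted p under 0.05 and none passed after adjustment, beside 5.87% and 0.0% of the 766 genes in that fit. With all rows on a common scale of estimated reads, no NR_ sum of a selected gene passed and 42 (16.5%) had an unadjusted p under 0.05, beside 10.3% of all NR_ sums, and 0.00599% of all sums passed. Leaving out 1 library moved the count of selected genes that passed for their NR_ sum to 13 (KO-WD replicate 1 left out), 17 (KO-WD replicate 2), 2 (WT-WD replicate 1) and 3 (WT-WD replicate 2), with the lone library taken to vary like the others. The share over all NR_ sums was also higher in these fits, with 2.62%, 2.97%, 0.805% and 0.906% of them passing in the same order, beside 5.12%, 6.69%, 0.787% and 1.18% of those of the selected genes.

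The differences of the selected genes centred near 0 in both classes. The median log2 difference, KO-WD minus WT-WD, was 0.05 for their NR_ sums and 0.0022 for their NM_ sums, beside -0.04 for all NR_ sums and 0.0016 for all NM_ sums tested. The middle 50% of the NR_ differences lay between -0.39 and 0.47 and that of the NM_ differences between -0.21 and 0.26. The NR_ values of the genotypes did not overlap in 92 of the 254 genes (36.2%), higher in KO-WD in 50 and lower in 42, beside 34.8% of all NR_ sums tested. The NM_ values did not overlap in 99 genes (39.0%), higher in KO-WD in 52 and lower in 47, beside 36.4% of all NM_ sums tested. These shares lie near the background.

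Nfxl1, a zinc finger protein related to the transcription factor NFX1, fell in its NR_ row (NR_153351) in the knockout. The row had 78.7 and 102.1 units in the KO-WD libraries, against 562.0 and 632.5 units in the WT-WD libraries. In estimated reads these were 4.75 and 7.22 in KO-WD, against 31.7 and 54.5 in WT-WD. The log2 difference was -2.72 ± 0.15 (SE), with a limma adjusted p of 0.00882. The expected spread in that fit came from sums of like units in all blocks. At equal units a third-block sum holds far fewer reads, so this SE and p may be too small. The single NM_ row of Nfxl1 (NM_133921) ran the other way, with 37.5 and 56.8 estimated reads in KO-WD, against 9.27 and 15.9 in WT-WD. The NM_ difference was 1.64 ± 0.36 (SE) in log2 units and did not pass, with a limma adjusted p of 0.673. Added together, Nfxl1 had 6.17 and 9.52 estimated RPM in KO-WD, against 6.92 and 8.59 in WT-WD, and the genotypes overlapped. The log2 difference of that sum was -0.01 ± 0.28 (SE), with a limma adjusted p of 0.998.

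The call for Nfxl1 was lost in several other fits, while its NR_ difference stayed negative. With all rows on the common read scale the NR_ difference was -2.24 with a limma adjusted p of 0.211, and with the third block fitted alone it was -2.72 ± 0.60 (SE) with an adjusted p of 0.581. The adjusted p was 0.0525 without WT-WD replicate 2 and 0.429 in limma without trend or robust moderation.

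Further NR_ sums with small unadjusted p and no overlap between the genotypes did not pass. Tmem208, which sits in the membrane of the endoplasmic reticulum, had 1048 and 714.4 NR_ units in KO-WD, against 182.3 and 170.9 in WT-WD, with a limma adjusted p of 0.0719. Its NM_ row held 43.8 and 64.9 estimated reads in KO-WD, against 76.6 and 89.9 in WT-WD, again against the direction of the NR_ row. Without KO-WD replicate 1 its adjusted p was 0.00149, and without KO-WD replicate 2 it was 0.000546. Llgl1, a regulator of cell polarity, had 3199 and 2472 NR_ units in KO-WD, against 1349 and 1532 in WT-WD, and Pik3c3, the lipid kinase VPS34 of autophagy, had 1657 and 2044 units in KO-WD, against 693.8 and 924.8 in WT-WD. The limma adjusted p was 0.306 for Llgl1 and 0.316 for Pik3c3. On the common read scale it was 0.386 and 0.521, and with the third block fitted alone it was 0.779 for both genes. Both had NM_ sums that were lower in both KO-WD libraries than in either WT-WD library. Jmjd6, a hydroxylase of splicing factors, had 798.3 and 726.7 NR_ units in KO-WD, against 362.5 and 434.9 in WT-WD, and NM_ sums of 31.7 and 33.1 units in KO-WD, against 32.8 and 31.5 in WT-WD. Zfat, a zinc finger protein, had 507.8 and 529.2 NR_ units in KO-WD, against 294.9 and 240.0 in WT-WD, with a limma adjusted p of 0.221. Camkk1, whose kept intron is printed above, had 5780 and 6292 NR_ units in KO-WD, against 3518 and 3944 in WT-WD, with a limma adjusted p of 0.354. Its NM_ sums of 560.7 and 482.9 units in KO-WD, against 474.5 and 460.4 in WT-WD, ran the same way as its NR_ sums.

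Conversely, Trap1, a mitochondrial chaperone of the Hsp90 family, had 151.7 and 116.8 NR_ units in KO-WD, against 1208 and 704.7 in WT-WD. These were 9.15 and 8.25 estimated reads in KO-WD, against 68.2 and 60.7 in WT-WD. Its NM_ rows held between 431.9 and 546.2 reads in every library. The limma adjusted p of the Trap1 NR_ sum was 0.489. It was 0.125 on the common read scale and 0.581 with the third block fitted alone. Tnpo2, a nuclear import receptor, had 3743 and 2820 NR_ units in KO-WD, against 6837 and 5045 in WT-WD, while its NM_ sums were 340.3 and 350.7 units in KO-WD, against 264.5 and 275.3 in WT-WD. Pfkfb4, which sets the level of an activator of glycolysis, had 715.5 and 692.7 NR_ units in KO-WD, against 1147 and 866.2 in WT-WD, and NM_ sums of 11.9 and 12.6 units in KO-WD, against 5.45 and 2.65 in WT-WD. Tmem168, a membrane protein, had 231.2 and 144.0 NR_ units in KO-WD, against 744.9 and 468.6 in WT-WD. Vcpkmt, a methyltransferase of the ATPase VCP, had 322.2 and 534.3 NR_ units in KO-WD, against 1010 and 839.7 in WT-WD. In Tnpo2, Pfkfb4, Tmem168 and Vcpkmt the NM_ log2 difference was positive, against the direction of the NR_ sums. None of these NR_ sums passed, with limma adjusted p of 0.811 for Tnpo2 and 0.888 for the other 3. On the common read scale the adjusted p was 0.211 for Tnpo2, 0.871 for Pfkfb4, 0.461 for Tmem168 and 0.696 for Vcpkmt.

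**Figure D5:**
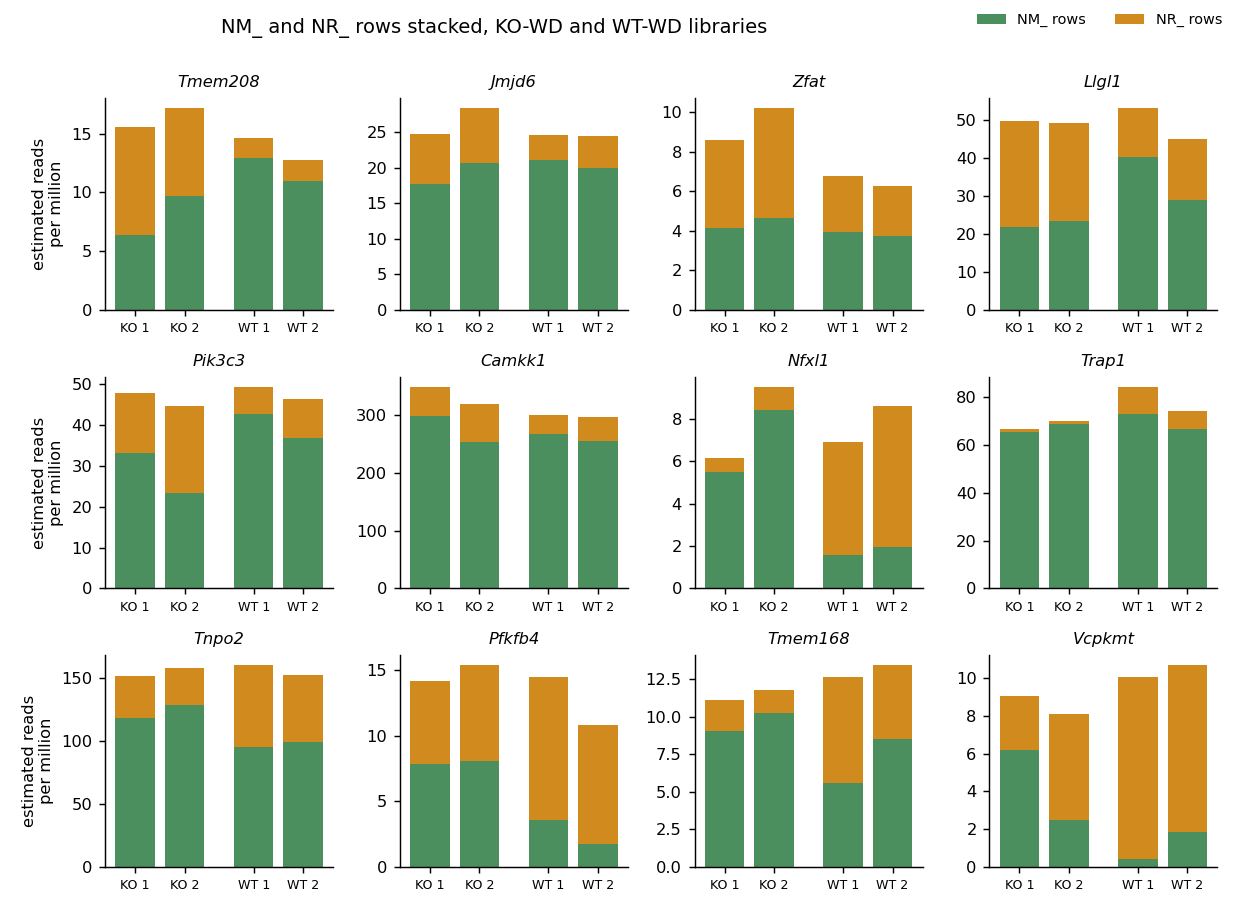
Estimated RPM (reads per 1000000 of the library) from NM_ rows (green) and NR_ rows (orange), stacked, for the 6 selected genes in each direction with the smallest unadjusted p for the NR_ sum among those without overlap, with KO-WD libraries left of WT-WD libraries. In Nfxl1 the NR_ part is small in KO-WD and large in WT-WD while the stacks overlap in height, and in Trap1 the NM_ part differs little between libraries.

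NR_ and NM_ differences between the genotypes were often opposite, as they were between replicates. The NR_ and NM_ log2 differences had opposite signs in 170 of the 254 genes (66.9%). Among the 40 selected genes without overlap in either class, 32 ran in opposite directions, beside 76 of 98 such genes (77.6%) among the others with both kinds of row. The difference itself between the 2 classes was tested as the log2 ratio of the NR_ to the NM_ sum over all 878 genes with both sums tested. No ratio passed in limma, of selected genes or of any gene (0.0%), and 11 of the 254 selected genes (4.33%) had an unadjusted p under 0.05, beside 5.24% of all ratios. The ratio of Nfxl1 had the smallest unadjusted p among the selected genes, with a log2 difference of -4.36 ± 0.49 (SE) and a limma adjusted p of 0.623. NR_ and NM_ sums added together, in RPM, passed for none of the 254 genes, and 15 (5.91%) had an unadjusted p under 0.05, beside 6.23% of the 15815 gene totals, of which 0.0569% passed.

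Genes that handle such RNAs were examined as 3 lists. None of the 100 tested sums of 85 genes for nonsense-mediated decay, splicing regulation, and nuclear RNA decay and retention passed in limma, and 7 had an unadjusted p under 0.05, beside 5.26% of all sums. In the decay list, Upf1, Smg1 and 19 other factors that find and degrade RNAs with premature stops, the NM_ difference was above 0 in 14 of 21 genes, with a median of 0.06 in log2 units. In the splicing list it was above 0 in 21 of 44 genes (median -0.01), and in the nuclear list in 7 of 20 (median -0.08), beside a median of 0.0016 for all NM_ sums. Smg9 and Upf3b had the smallest p of the decay list, with limma adjusted p of 0.912 each. Among the splicing regulators, Srsf11, which is also a selected gene, had 4201 and 4608 NR_ units in KO-WD, against 2903 and 3457 in WT-WD, with a limma adjusted p of 0.822, and Srsf9 had an adjusted p of 0.896. In the nuclear list, Matr3, an RNA-binding protein of the nuclear matrix, had 450.1 and 464.1 NM_ units in KO-WD, against 547.8 and 559.8 in WT-WD, with an adjusted p of 0.912, the same as for Zc3h14.

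Markers of other cells moved between the genotypes and are given beside these results. All 9 oligodendrocyte markers had lower NM_ sums in KO-WD (median log2 difference -0.41, none passing, 6 of their 10 tested sums at an unadjusted p under 0.05), with 5620 and 5377 estimated RPM over the list in KO-WD, against 6618 and 7387 in WT-WD. Mobp belongs to that list, and its NR_ difference of -0.27 had the same sign. In bulk RNA, fewer cells of a type and less RNA per cell cannot be told apart. All 12 choroid plexus markers had higher NM_ sums in KO-WD, with 6504 and 3665 RPM over the list in KO-WD, against 3304 and 1590 in WT-WD, and none is a selected gene. When all rows of a gene were added in RPM, F5 of the choroid plexus list passed. The 9 hippocampal neuron markers summed to 8005 and 8900 RPM in KO-WD, against 8034 and 7645 in WT-WD. The 9 nucleus-retained RNAs summed to 5625 and 8379 in KO-WD, against 6251 and 7125 in WT-WD. Their part in the differences of the selected genes was not tested.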

How the data were processed

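Each of the 4 hippocampus libraries has 1 table, deposited by the authors, that gives a normalized signal for each RefSeq transcript in 30108 shared rows. The labels' protocols name an Ion total RNA kit. STAR, Partek and mm39 are named in the submitters' processing notes. Quantification, normalization, annotation release and strand setting were not given in the sources used here. The members, gene lists, roles and tests were chosen with earlier results of these data known.

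A constant of 0.0001 was subtracted from every value. Rows were named by a RefSeq gene table (GRCm38.p6) and GENCODE M21, which matched 30076 rows. These builds differ from mm39, so they serve for names, and coordinates are given for GRCm38 sequences only. NR_ and NM_ rows were summed per gene.

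Blocks were found from accession numbers. The NR_ boundary is the last number whose row averaged under 30 units, and steps come from the most frequent low values. Of values under 20 estimated reads, 27.1% to 39.4% in the first block, 8.37% to 9.66% in the second and 18.1% to 25.1% in the third were whole within 0.02 read. Reads are therefore estimates, and weakest in the second block, which held 488 of the 718 NM_ rows of the selected genes. No count model was used. The blocks are separately scaled, so NR_ against NM_ levels in units cross scales. A floor of 3 reads was between 34.8 and 53.1 units in the third block, and covers counting error only.

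The genotypes were compared with limma 3.58.1 in R 4.3.3 on log2(units + 1), using the trend and robust options and 2 residual degrees of freedom. The trend follows the level in units over all blocks. Third-block sums therefore share an expected spread with sums of many more reads. Sums entered where 2 or more libraries reached 1 unit. All gene-wise p-values are from limma and two-sided. Adding 1 unit understates the fold changes of sums of few units, such as low NM_ sums. In the third block 1 read was worth between 11.6 and 17.7 units. NR_ sums of few reads there are hardly shrunk, and their fold changes can be large. With 2 libraries against 2, an exact permutation test cannot go below 0.333.

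Named are selected genes that passed, the 12 with the highest NR_ mean, up to 6 per direction with the smallest p and no overlap, the nearest to each threshold, the 3 steadiest, the 3 least steady and the 6 with libraries of 1 genotype farthest apart, and 2 per list. Chosen for naming after seeing values were the genes with at least 80% in reads, those with kept introns, and the examples of each role. Alternatives were other pseudocounts, filters, scalings, variance models and thresholds, a replicate block, single transcripts and leaving out each library. Added after seeing the data were the common read scale (0.5 RPM added, filter 0.5) and the third block alone.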

Additional observations from a re-analysis of the deposited data

How the results depend on the processing

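Of 107 alternative values for the main results, 21 moved beyond the limits set for them. Selected genes that passed for their NR_ sum numbered 1. They numbered 6 with the replicate block, between 2 and 17 with 1 library left out, 2 with an NR_ mean of at least 100 units as the threshold and 0 with 1000 units. They also numbered 0 in limma without trend or robust moderation, on the common read scale, with the third block alone and with each transcript tested alone, where the unadjusted p was under 0.05 for 34 (13.4%, beside 12.3% of all NR_ sums), 42 (16.5%, beside 10.3%), 20 (7.94%, beside 5.87%) and, over transcripts, 67 of 454 rows (14.8%, beside 8.9% of all NR_ rows). Over all sums, 4 passed, against 19 with the replicate block, 0 in limma without trend or robust moderation, 1 on the common read scale and between 17 and 64 with 1 library left out. The NM_ count of 0 became 1 without WT-WD replicate 1 and ranged between 0 and 1 with 1 library left out. The cause of these moves was not tested. The number of selected genes, 254, became 138 at 1000 units and 13 with the share taken in reads. The ratio counts stayed at 0 and the median log2 difference of the selected genes ranged, with 1 library left out, between 0.0003 and 0.105 for NR_ sums and between -0.0014 and 0.058 for NM_ sums. In the pairing check, the correlation of the KO-WD and WT-WD replicate differences was 0.03 over all sums, so the numbers are not taken to pair libraries. Over 12 genes named for a small p, no direction changed. Of their 168 alternative values, 156 kept the call, 8 passed where the main value did not (with the replicate block Tmem208 at an adjusted p of 0.0186, Trap1 at 0.0104 and Tmem168 at 0.0186), and 4, those of Nfxl1, no longer passed. The third block holds 56179 to 85591 reads per library, which limits every NR_ value.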

Other observations

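Oca2 and Terf1 had the smallest unadjusted p for an NM_ sum among the selected genes, and neither passed. Oca2, a melanosome transporter, had 7.01 and 7.24 NM_ units in KO-WD, against 0.392 and 0.0278 in WT-WD, an NM_ log2 difference of 2.76 ± 0.38 (SE), with a limma adjusted p of 0.241. Terf1, a telomere-binding protein, had 27.7 and 50.7 NM_ reads in KO-WD, against 1.18 and 7.86 in WT-WD, with a limma adjusted p of 0.354. Its NR_ rows held 24.3 and 1.90 reads in KO-WD, against 37.8 and 45.3 in WT-WD. Added together, Terf1 had 7.58 and 7.82 RPM (estimated reads per 1000000 of the library) in KO-WD, against 6.59 and 6.49 in WT-WD.

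Of the 13 selected genes with NR_ rows in both the first and the third block, the row with the highest signal in units lay in the third block in all 13. The scaling favoured that outcome, since a read counts for far more units in the third block. In estimated reads it did not hold for all 13. The first-block row held more reads than each third-block row in Mrpl48 and Ippk, for example, and fewer in Disp3 and Erc1.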
